A study of Mus musculus with 38 samples.

Results

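Small RNA sequencing of mature sperm was used to ask whether the timing of protein restriction mattered, by comparing mice restricted only after weaning (CTPR) with mice restricted only until weaning (PRCT). Of the 38 C57BL/6J males in the series, 18 belonged to these diet groups, 9 in each. CTPR males had dams fed the control diet (CT, 20% protein) through pregnancy and lactation, and received the protein-restricted diet (PR, 8% protein) themselves from weaning at day 21. PRCT males had dams fed the PR diet over the same period, and received the CT diet from weaning. All were killed as adults after an overnight fast, and sperm were collected by swim-out from the epididymis. The 18 mice came from 18 litters, so no litter held a mouse of both groups. The remaining mice, CTCT (10, control diet throughout) and PRPR (10, restricted throughout), are given beside some results for reference, with no test. Group membership followed the study's own list of mice. For the brothers 47I1 and 47I2 that list and the deposited labels disagreed, and 47I1 was taken as CTPR. Results that changed side of the threshold without litter 47I are given with their values.

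Sperm carry little cytoplasm, but they hold a distinctive set of small RNAs. Fragments of mature tRNAs, mostly from the 5′ side, are abundant in epididymal sperm and are partly delivered by vesicles from the epididymal epithelium. piRNAs are made in the testis, where with PIWI proteins they silence transposons and guide the decay of transcripts during spermatogenesis. miRNAs repress target transcripts through a seed at their 5′ end, and snoRNAs guide the chemical modification of ribosomal RNA in the nucleolus. A share of one class can rise only if the share of others falls, and in a bulk sample fewer cells of one type and less RNA per cell cannot be told apart.

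The libraries were close in depth. Reads matching the genome ranged from 4596770 to 7316533 in CTPR and from 5744388 to 7612603 in PRCT, and log2 depth did not differ detectably (exact permutation test, two-sided, P = 0.936). Among mice of one group, no pair of libraries came near to being the same library deposited more than once. CTPR mouse 02A8 had the lowest depth and was the lowest of its group for most miRNAs named here. CTPR mouse 09H5 stood apart from its group in snoRNA, and PRCT mouse 59L1 in several tRNAs.

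piRNA took a larger share and snoRNA a smaller share of the reads in CTPR than in PRCT, but neither difference passed correction over the 11 classes. The piRNA share in CTPR had a lowest value of 6.05%, a median of 16.5% and a highest value of 33.2%. In PRCT it had a lowest value of 4.35%, a median of 11.3% and a highest value of 14.2%. No PRCT mouse lay above the CTPR median, while 7 of 9 CTPR mice lay above the PRCT median, and the groups overlapped. The means were 16.4% ± 7.83 (SD, n = 9) and 9.71% ± 3.96 (SD, n = 9), a difference of 6.69 percentage points (SE 2.92, exact permutation test, two-sided, P = 0.0267, adjusted P = 0.177).

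The snoRNA share was lower on average in CTPR. There it had a lowest value of 7.48%, a median of 15.2% and a highest value of 34.3%, and in PRCT the corresponding values were 13.6%, 22.8% and 47.2%. In CTPR, 8 of 9 mice lay below the PRCT median, and the exception was 09H5, which had the highest value. The means were 16.03% ± 7.70 (SD, n = 9) and 26.6% ± 11.1 (SD, n = 9), a difference of -10.5 percentage points (SE 4.49, exact permutation test, two-sided, P = 0.0322, adjusted P = 0.177). Both results turned on 09H5. Without 09H5 the difference in piRNA was 7.98 points (exact permutation test, adjusted P = 0.0328) and that in snoRNA was -12.8 points (adjusted P = 0.0267). In CTCT and PRPR the median snoRNA shares were 29.5% and 28.9%, above both PRCT (22.8%) and CTPR (15.2%). Their median piRNA shares, 10.1% and 9.02%, lay below those of both groups and closer to PRCT.

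**Figure D1:**
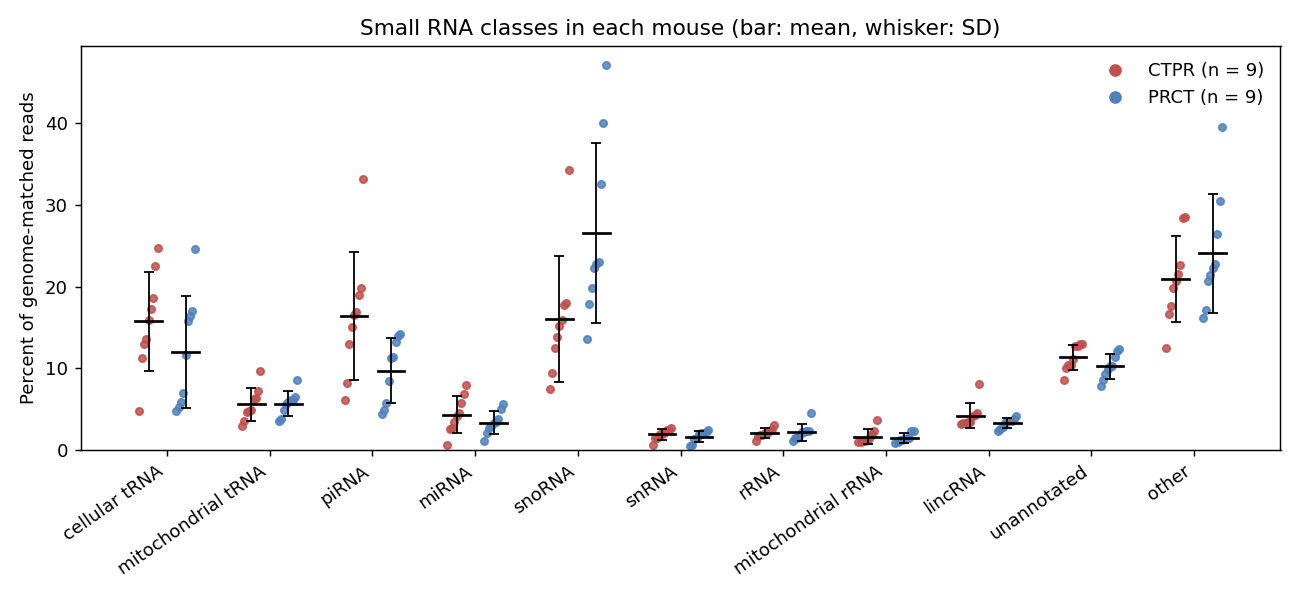
Percent of genome-matched reads (vertical axis) taken by each of 11 small RNA classes in each CTPR (red) and PRCT (blue) mouse, with the group mean as a bar and the SD as a whisker. The groups overlap: for snoRNA 8 of 9 CTPR points lie below the PRCT median of 22.8%, and for piRNA 7 of 9 lie above the PRCT median of 11.3%.

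The other classes differed less. Cellular tRNA had a median of 15.9% in CTPR (range 4.72% to 24.7%) and 11.6% in PRCT (range 4.77% to 24.6%), so the groups covered almost the same range. The difference in means was 3.72 points (SE 3.05, exact permutation test, P = 0.237, adjusted P = 0.504). These values, the composition test and the ratios to tRNA below use the tRNA class row, which in PRCT mouse 31A3 was smaller than the sum of its isoacceptors (5.84% against 7.79% of reads). With classes taken as sums of their member rows, the difference in tRNA was 3.50 points (exact permutation test, P = 0.257) and the test of class composition gave P = 0.0429. Without 31A3 the composition gave an exact permutation P of 0.0709, and the log2 ratio of tRNA to snoRNA was higher by 1.09 (P = 0.102). Mitochondrial tRNA averaged 5.56% and 5.64% (exact permutation test, P = 0.928), and miRNA averaged 4.28% and 3.31% (exact permutation test, P = 0.295). The miRNA class, here and in the ratio of piRNA to miRNA, pooled entries of the miRBase and Ensembl databases. The Ensembl entries alone differed by -0.0373 points (exact permutation test, P = 0.956). The miRNA precursors and shares of miRNA reads given below used miRBase entries only. For lincRNA the means were 4.18% and 3.28% (exact permutation test, P = 0.0765), with the highest value, 8.11%, in 02A8. None of the remaining 5 categories (snRNA, rRNA, mitochondrial rRNA, unannotated and other) had an unadjusted P below 0.15 in the exact permutation test.

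When all 11 classes were compared at once, the composition of CTPR and PRCT differed at P = 0.0376 (exact permutation test on the squared differences between mean percentages, over all splits of 9 against 9). This call was not stable. It was lost when the share of snoRNA was left out (P = 0.107), when percentages were put on a log2 scale (P = 0.132), and without litter 47I (P = 0.0557), all by the same exact permutation test. It was also lost without any one of 8 mice (CTPR 35F1, 45L1, 56I1, 47I1 and 57P1, and PRCT 14A4, 23F4 and 31A3), and over the 18 mice left out in turn the exact permutation P ran from 0.00411 to 0.0830, the lowest without 09H5.

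Ratios between classes in a mouse do not depend on the denominator of the percentages. The log2 ratio of tRNA to snoRNA had a median of 0.05 in CTPR and -0.95 in PRCT, and 8 of 9 CTPR mice lay above the PRCT median. Its mean was higher by 1.24 in CTPR (SE 0.60, exact permutation test, P = 0.0550, adjusted P = 0.220 over 4 ratios), and without 09H5 by 1.59 (adjusted P = 0.0209). With each mouse left out in turn this difference ran from 1.00 to 1.59. The log2 ratio of piRNA to miRNA was higher by 0.50 (exact permutation test, P = 0.234), that of piRNA to tRNA by 0.25 (P = 0.389), and that of mitochondrial to cellular tRNA was lower, with a difference of -0.55 (P = 0.160).

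Within the genome-matched tRNA reads, most came from 5′ ends in both groups. The 5′ share of tRNA reads had a median of 83.9% in CTPR (range 78.5% to 87.0%) and 85.8% in PRCT (range 83.3% to 88.0%), and the means differed by -1.82 points (exact permutation test, P = 0.108). Fragments from the 3′ end averaged 0.326% and 0.311% (exact permutation test, P = 0.678). Fragments that carry the CCA tail, added to a tRNA after transcription, averaged 0.405% and 0.342% (exact permutation test, P = 0.475). Reads with the tail that were listed as not matching the genome form a separate class and were left out, so these shares do not cover all such fragments. The CCA shares used member rows. Their sum was above the CCA class row in all mice but 56I1, 47I1 and 40H1, for example 2093 against 579 reads in 02A8. The CCA shares are therefore uncertain, and the cause of the mismatch was not tested. No difference in end shares was detectable between the groups.

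The make-up of the tRNA pool was also compared among the 9 isoacceptors with a mean share of at least 1%. Isoacceptors are tRNAs that carry the same amino acid but differ in anticodon, and each row here holds 1 anticodon. Gly-GCC was the largest, with a median of 58.9% of tRNA reads in CTPR and 52.2% in PRCT (exact permutation test, P = 0.305). Glu-CTC was next, with a median of 11.99% in CTPR (range 7.41% to 30.2%) and 21.9% in PRCT (range 9.502% to 30.9%). In 7 of 9 CTPR mice it lay below the PRCT median, yet the ranges overlapped nearly in full and the means differed by -5.88 points (exact permutation test, P = 0.113). Val-AAC averaged 2.56% and 1.69% (exact permutation test, P = 0.0816), and no isoacceptor passed correction. The anticodon itself was uncertain for glycine and valine, since rows of the same files split them differently. Over the 18 mice the median share of Gly-GCC was 57.6% in the isoacceptor rows and 5.42% in the end rows, where Gly-CCC took 58.3%. Summed over glycine the rows were close, with medians of 62.0% and 64.9%, so these reads can be assigned to glycine tRNAs but not to one anticodon.

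Levels were expressed as RPM, genome-matched reads scaled to a library of 1000000 reads. On this scale, most tRNA isoacceptors had higher estimates in CTPR, and none passed the test. edgeR's quasi-likelihood test called 0 of 51 isoacceptors at an adjusted P below 0.05 (0% of those tested). At an unadjusted P below 0.05 it gave 12 higher (23.5%) and 0 lower (0%), and 47 of 51 had a positive estimate, with a median log2 fold difference of 0.59. DESeq2 gave 0 adjusted and 13 unadjusted higher. When each library was instead scaled to its own isoacceptor reads, 40 of 51 estimates were positive, 5 isoacceptors had an unadjusted P below 0.05, and the median fell to 0.26.

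The smallest P-values belonged to Ser-GGA, Tyr-GTA and Gln-CTG. Gln-CTG, which reads a glutamine codon, had in CTPR a lowest level of 487 RPM, a median of 1818 RPM and a highest of 3296 RPM, against 289, 622 and 1486 RPM in PRCT. Its log2 fold difference was 1.07 (SE 0.40, edgeR, adjusted P = 0.167), and 7 of 9 CTPR mice lay above the PRCT median. Tyr-GTA, a tyrosine tRNA, had a median of 52.2 RPM in CTPR and 24.3 RPM in PRCT, with a log2 fold difference of 1.04 (SE 0.39, edgeR, adjusted P = 0.167). Within isoacceptor reads the estimates of Gln-CTG and Tyr-GTA were 0.63 and 0.67. Ser-GGA, a serine tRNA, was near the detection limit. It had a median of 2.05 RPM in CTPR, with 2 mice at 0, and 6 of 9 PRCT mice were at 0 (log2 fold difference 2.86, SE 0.87, edgeR, adjusted P = 0.159). Of the settings tried, it passed only when 09H5 was left out (adjusted P = 0.0463) or when PRCT mouse 40H1, the highest of its group at 1.86 RPM, was left out (adjusted P = 0.00772).

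The most abundant isoacceptors overlapped widely. Gly-GCC had a median of 83358 RPM in CTPR and 71119 RPM in PRCT, with a log2 fold difference of 0.45 (SE 0.43, edgeR, adjusted P = 0.398). Glu-CTC had a median of 23403 RPM and 20253 RPM, with a log2 fold difference of -0.07 (SE 0.37, edgeR, adjusted P = 0.860). Lys-CTT (8583 and 6047 RPM), Gly-CCC (6793 and 2850 RPM) and Val-CAC (5321 and 3270 RPM) had higher medians in CTPR, with log2 fold differences of 0.41, 0.33 and 0.53 and edgeR adjusted P-values of 0.330, 0.611 and 0.329. Under TMM scaling the estimates of Gly-GCC, Gly-CCC, Lys-CTT and Val-CAC all turned negative, from -0.24 to -0.07, so no direction is given for them.

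Of the 4 isoacceptors with negative estimates, 3 turned positive only without 59L1 when mice were left out in turn. Ala-TGC had medians of 249 RPM in CTPR and 147 RPM in PRCT, yet a log2 fold difference of -0.45 (SE 0.60, edgeR, adjusted P = 0.565), with 1885 RPM in 59L1 and 190 RPM in the next PRCT mouse. Ala-CGC and Asp-GTC, an aspartate tRNA, showed the same pattern, with 423 and 9430 RPM in 59L1 and log2 fold differences of -0.15 and -0.16. Without 59L1 the estimates were 0.97, 0.69 and 0.39, 25 isoacceptors had an unadjusted P below 0.05 in place of 12, and all 51 estimates were positive. The fourth, Glu-CTC, lay close to 0 and turned positive without any one of 5 mice (09H5, 45L1, 57P1, 46I1 and 59L1). Without CTPR mouse 57P1 the number was 5.

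**Figure D2:**
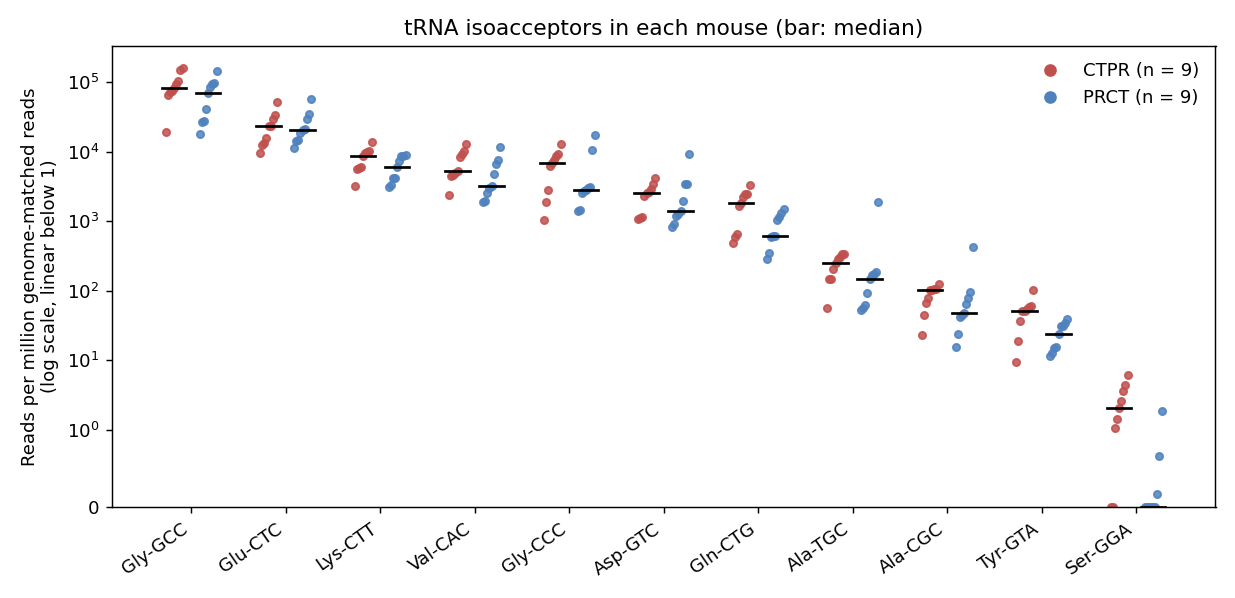
Level of the named tRNA isoacceptors in each CTPR (red) and PRCT (blue) mouse, in RPM on a log axis that is linear below 1, with the group median as a bar. The CTPR median is higher throughout, for example 1818 against 622 RPM for Gln-CTG, while the points overlap and 1 PRCT mouse stands high for Ala-TGC at 1885 RPM.

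All miRNAs, piRNAs and tRNA ends with a mean of at least 10 reads were then tested in one table: 7627 of 408959 listed piRNAs, 94 of 126 tRNA ends and the more abundant of 614 miRNA precursors. None passed edgeR's quasi-likelihood test at an adjusted P below 0.05 (0 of 7925, 0%). At an unadjusted P below 0.05 there were 687 members higher in CTPR (8.67%) and 117 lower (1.48%). DESeq2 called 66, all piRNAs, the kind to which 7627 of the 7925 members tested belonged. Of these calls, 49 had a read in at most 8 of the 18 mice, beside 1869 of the 7627 piRNAs tested. By limma 1 member was called, piR-mmu-11574721 (log2 fold difference 4.58, adjusted P = 0.00921), which is named after its values were seen. By edgeR its log2 fold difference was 4.21 (SE 1.46, adjusted P = 0.227). With the newer estimate of dispersion in edgeR (legacy=FALSE) 0 passed after adjustment, and 14.6% were higher and 1.78% lower at an unadjusted P below 0.05.

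Most estimates pointed the same way, and this depended on the scaling. Per genome-matched read, 192 miRNAs (12 lower), 6443 piRNAs (1184 lower) and 86 tRNA ends (8 lower) were estimated higher in CTPR, with median log2 fold differences of 0.82, 0.85 and 0.55. Relative to the reads of its own kind the numbers were 103, 4186 and 65, and the medians 0.01, 0.10 and 0.22. For piRNAs this scaling used the summed reads of the listed piRNAs, which made up 61.7% to 78.9% of the piRNA class row in a mouse. Over all members the share with a higher estimate was 84.8% per genome-matched read, 61.6% after TMM scaling and 54.9% within kinds, and the median was 0.84, 0.22 and 0.09. Log2 fold differences of single members are per genome-matched read unless another scaling is named.

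**Figure D3:**
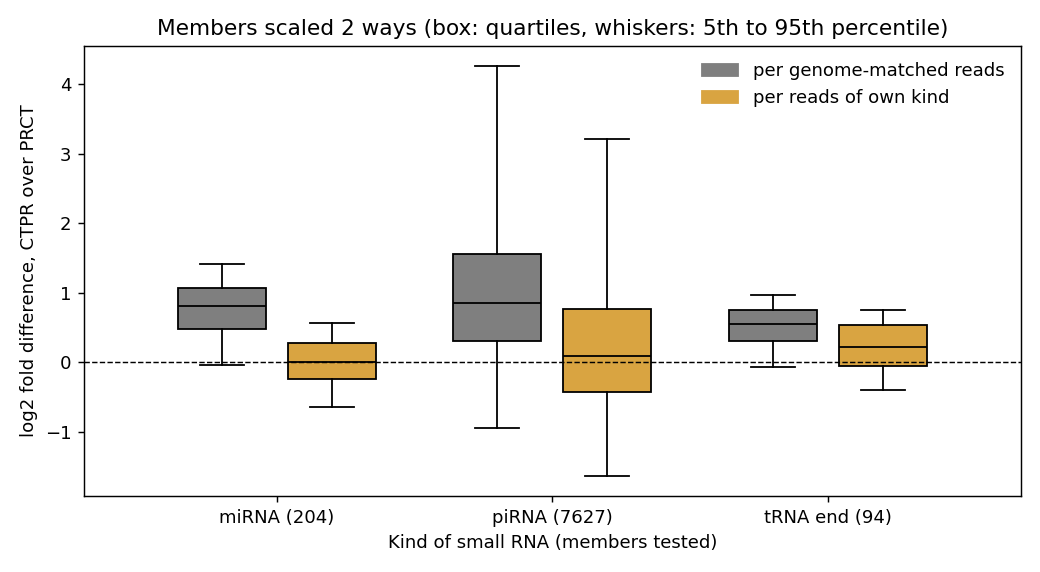
log2 fold difference, CTPR over PRCT, of all members tested (vertical axis) by kind, scaled to genome-matched reads (grey) or to the reads of the member's own kind (gold). Boxes give quartiles and whiskers the 5th to 95th percentile. The grey medians are 0.82, 0.85 and 0.55 for miRNA, piRNA and tRNA ends, and the gold medians are 0.01, 0.10 and 0.22.

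Of the 10 miRNA precursors named, the mature arms of 5 are shown: mir-148a, mir-21a and mir-10a, which were among the 5 most abundant, and mir-26a-2 and mir-7a-1, which were among the 3 with the smallest P. Sequences are from RefSeq (GRCm38.p6), 5′ to 3′, with the seed, bases 2 to 8, in capitals. The files count reads per precursor, so the arms were not separated, and no seed was shared among them.
miR-148a-3p: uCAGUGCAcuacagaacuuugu
miR-148a-5p: aAAGUUCUgagacacuccgacu
miR-21a-5p: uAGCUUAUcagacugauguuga
miR-21a-3p: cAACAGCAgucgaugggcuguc
miR-10a-5p: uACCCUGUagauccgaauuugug
miR-10a-3p: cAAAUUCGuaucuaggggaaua
miR-26a-5p: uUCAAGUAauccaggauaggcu
miR-26a-2-3p: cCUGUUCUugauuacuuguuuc
miR-7a-5p: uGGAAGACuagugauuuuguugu
miR-7a-1-3p: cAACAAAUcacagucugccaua

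In GRCm38.p6 the hairpin of mir-148a lies on the minus strand of chromosome 6 (51269812 to 51269910) and that of mir-10a on the plus strand of chromosome 11 (96317165 to 96317274), neither inside another annotated gene. The hairpin of mir-21a lies on the minus strand of chromosome 11 (86584067 to 86584158), over an annotated exon of Vmp1. The hairpin of mir-26a-2 lies on the plus strand of chromosome 10 (126995530 to 126995613), over an annotated exon of Ctdsp2, and that of mir-7a-1 on the minus strand of chromosome 13 (58392779 to 58392886), in an intron of Hnrnpk.

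No miRNA passed the test. At an unadjusted P below 0.05 there were 3 higher in CTPR and 0 lower by edgeR (1.47% and 0% of the miRNAs tested, beside 8.67% and 1.48% over all members), and 23 and 0 in the legacy=FALSE form (11.3% higher, beside 14.6% over all members). When only members with a read in at least 14 mice were kept, edgeR gave 16 of 195 miRNAs higher and 0 lower at an unadjusted P below 0.05. These were 8.21% higher, beside 9.09% over all members kept by that filter, so the low count depended on the members fitted together. In the main fit the precursor mir-26a-2 gave the smallest P. Its level in CTPR had a lowest value of 3.26 RPM, a median of 374.6 RPM and a highest value of 645 RPM, against 54.0, 101 and 250 RPM in PRCT. The log2 fold difference was 1.34 (SE 0.60, edgeR, adjusted P = 0.456), and within miRNA reads it was 0.17. The mature 5p arm is identical in mir-26a-1, so reads could be split between both loci. For mir-7a-1 the medians were 90.7 and 48.5 RPM (log2 fold difference 1.25, SE 0.57, edgeR, adjusted P = 0.469), and for mir-30b they were 50.8 and 20.6 RPM (1.07, SE 0.50, edgeR, adjusted P = 0.484). Within miRNA reads their log2 fold differences were 0.37 and 0.19.

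The most abundant precursor, mir-148a, had a median of 6323 RPM in CTPR (range 169 to 13767 RPM) and 1889 RPM in PRCT (range 526.1 to 6176 RPM). Both extremes of CTPR were single mice, 02A8 and 57P1. The log2 fold difference was 1.12 (SE 0.58, edgeR, adjusted P = 0.548), and it was 0.41 within miRNA reads. The muscle-associated mir-143 had medians of 2272 and 1108 RPM (0.91, edgeR, adjusted P = 0.634), but its estimate was 0.066 under TMM scaling and turned to -0.070 within miRNA reads. The precursor mir-21a, which is widely expressed, had medians of 1116 and 335 RPM (1.10, edgeR, adjusted P = 0.579), and 0.15 within miRNA reads. For mir-10a, which lies in the HoxB cluster, the medians were 691 and 584 RPM, and its sign turned with the scaling, from 0.41 per genome-matched read to -0.30 within miRNA reads.

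Of the 12 precursors with lower estimates in CTPR, the 3 with the smallest P were mir-3535 (medians of 590 and 817 RPM, log2 fold difference -0.46, edgeR, adjusted P = 0.642), let-7c-2 (135 and 163 RPM, -0.31, adjusted P = 0.850) and mir-128-2 (2.48 and 4.48 RPM, -0.93, adjusted P = 0.754). For mir-3535, 1 of 9 CTPR mice lay above the PRCT median. Within miRNA reads, a scaling chosen after seeing the data, 1 precursor was higher and 7 were lower at an unadjusted P below 0.05 by edgeR, and none passed adjustment (smallest adjusted P = 0.384). The higher one was mir-148a, and the lower ones were mir-320, mir-128-2, mir-10a, mir-10b, let-7b, let-7c-1 and let-7c-2, the last 3 with log2 fold differences of -0.80, -1.02 and -0.88.

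**Figure D4:**
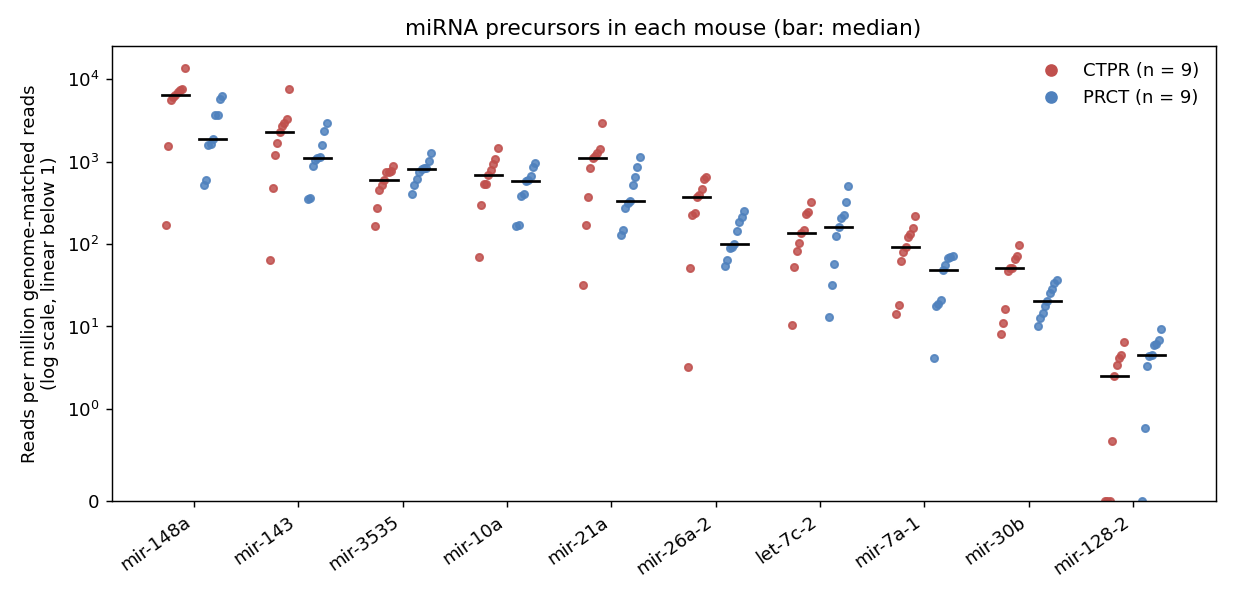
Level of the named miRNA precursors in each CTPR (red) and PRCT (blue) mouse, in RPM on a log axis that is linear below 1, with the group median as a bar. For mir-148a the CTPR median is 6323 and the PRCT median 1889 RPM, with 1 CTPR mouse at 169 RPM below all PRCT mice.

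Grouped by family, most miRNAs had higher estimates in CTPR per genome-matched read, but their list medians lay between -0.24 and 0.36 within miRNA reads, and none of the lists held a called member. Beside the median log2 fold difference of 0.82 over all miRNAs tested, the medians were 0.94 for the mir-30 family (6 of 6 positive), 1.30 for the mir-29 family (4 of 4) and 1.03 for the mir-34 and mir-449 families, which are prominent in spermatogenic cells (4 of 4). They were 0.79 for the mir-183 cluster (3 of 3), 0.60 for the mir-17-92 and mir-106b-25 clusters (7 of 7), 0.53 for the mir-10 and mir-125 families (8 of 8), and 0.70 for the X-linked miRNAs expressed in testis (15 of 15). A list of miRNAs linked by others to paternal stress had a median of 0.73 (6 of 6). The let-7 family, which restrains growth-promoting targets, had the lowest median of these lists, 0.43 (9 of 12 positive). Its summed share of miRNA reads had a median of 12.2% in CTPR (range 10.7% to 14.1%) and 14.5% in PRCT (range 11.0% to 21.6%), and the ranges overlapped. Within miRNA reads the list medians were -0.24 for let-7, -0.12 for mir-10 and mir-125, -0.081 for the paternal stress list, -0.015 for the X-linked miRNAs and -0.0079 for the mir-183 cluster, so their direction turned with the scaling, and that of the mir-29 family was 0.36.

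The most abundant members of each list overlapped between the groups in level. In the let-7 family, let-7g had medians of 670 RPM in CTPR and 414 RPM in PRCT (log2 fold difference 0.53, SE 0.52) and let-7i had 468 and 356 RPM (0.44, SE 0.52). In the mir-34 and mir-449 families, mir-34c had 724 and 355 RPM (0.90, SE 0.54) and mir-34b had 32.9 and 21.4 RPM (0.56, SE 0.40). For mir-99a, listed with mir-10 and mir-125, the medians were 783 and 494 RPM (0.75, SE 0.52). In the mir-30 family, mir-30a had 633 and 230 RPM (1.18, SE 0.59) and mir-30d had 222 and 113 RPM (0.64, SE 0.45). None of these differences passed adjustment by edgeR. Within miRNA reads the estimates turned negative for let-7g (-0.18), let-7i (-0.28), mir-99a (-0.10) and mir-30d (-0.079), and were 0.12 for mir-34c, 0.15 for mir-34b and 0.23 for mir-30a. Under TMM scaling that of mir-34b also turned, to -0.17.

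The remaining lists held less abundant members. From the clusters mir-17-92 and mir-106b-25, mir-25 had medians of 52.8 and 44.5 RPM (log2 fold difference 0.020, SE 0.37) and mir-92a-1 had 46.7 and 32.6 RPM (0.50, SE 0.40). In the mir-183 cluster, mir-182 had 117 and 55.5 RPM (0.79, SE 0.54) and mir-183 had 73.4 and 42.7 RPM (0.60, SE 0.52). Of the X-linked miRNAs, mir-881 had 664 and 360 RPM (0.70, SE 0.48) and mir-871 had 36.9 and 22.5 RPM (0.29, SE 0.46). In the mir-29 family, mir-29a had 146 and 51.6 RPM (1.31, SE 0.65) and mir-29c had 3.52 and 1.54 RPM (1.09, SE 0.94). From the paternal stress list, which also holds mir-30a, mir-30c-2 had 87.9 and 41.9 RPM (0.82, SE 0.53). Within miRNA reads the estimates turned negative for mir-25 (-0.25), mir-182 (-0.0079), mir-183 (-0.11), mir-881 (-0.015), mir-871 (-0.22) and mir-30c-2 (-0.17), and were 0.050 for mir-92a-1, 0.29 for mir-29a and 0.27 for mir-29c. That of mir-92a-1 turned to -0.21 under TMM scaling.

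Markers of other epididymal cells had higher estimates in CTPR per genome-matched read, and none passed even an unadjusted P of 0.05 by edgeR. The summed muscle markers had a median of 2606 RPM in CTPR (range 71.6 to 8576 RPM) and 1270 RPM in PRCT (range 387 to 3443 RPM), and 6 of 6 tested members had positive estimates. The epithelial markers, the mir-200 family and mir-205, had medians of 1061 RPM (range 34.2 to 2279 RPM) and 399 RPM (range 134 to 1066 RPM), with 6 of 6 positive. The red cell markers had medians of 7.64 and 6.54 RPM, with 1 of 1 tested member positive (mir-451a, medians of 5.34 and 5.32 RPM), and the leucocyte markers 29.9 and 18.7 RPM, with 2 of 2 positive (mir-223 and mir-142a). As shares of miRNA reads, the medians were 10.8% and 10.5% for muscle and 4.11% and 3.81% for epithelium, and the median log2 fold differences of the tested members were 0.11 and 0.098 within miRNA reads. On the same scale the median was 0.41 for the 2 leucocyte members, and mir-451a gave 0.014. The part of these cells in the differences was not tested.

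Among piRNAs, 678 had higher and 116 lower levels at an unadjusted P below 0.05 (8.89% and 1.52% of those tested, beside 8.67% and 1.48% over all members), and the member with the smallest P showed how sparse many were. Of these 794 piRNAs, 548 had a read in at most 8 of the 18 mice, and 152 in 14 or more. Among all 7627 piRNAs tested these counts were 1869 and 3268. For piR-mmu-42026994, 8 of 9 CTPR mice had reads (median 2.05 RPM, highest 8.34 RPM) and all 9 PRCT mice were at 0 (edgeR, adjusted P = 0.227). In piR-mmu-16640197 and piR-mmu-3662967, 6 of 9 CTPR mice and 1 of 9 PRCT mice had reads. The piRNAs with the smallest P among those lower in CTPR (piR-mmu-44603810, piR-mmu-15350857 and piR-mmu-21164962) had a read in 5, 4 and 4 mice, and a group median of 0 in both groups. When only members with a read in at least 14 mice were kept, 302 of 3268 piRNAs were higher and 5 lower at an unadjusted P below 0.05. These were 9.24% and 0.153%, beside 9.09% and 0.141% over all members kept by that filter, and edgeR called 0 after adjustment.

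The abundant piRNAs were detected more evenly. The level of piR-mmu-5619027 had in CTPR a lowest value of 312 RPM, a median of 527 RPM and a highest value of 1104 RPM, against 117, 331 and 515 RPM in PRCT (log2 fold difference 0.78, SE 0.33, edgeR, adjusted P = 0.381). For piR-mmu-3744158 the medians were 3185 and 1287 RPM (0.98, SE 0.56, edgeR, adjusted P = 0.594), and for piR-mmu-9033385 they were 581 and 253 RPM (0.96, SE 0.53, edgeR, adjusted P = 0.579). Within the reads of listed piRNAs their log2 fold differences were 0.24, 0.22 and 0.03. The level of piR-mmu-2819708 had medians of 921 and 557 RPM with 2 and 3 mice at 0, and piR-mmu-14081516 was abundant only through PRCT mouse 51O1, at 8606 RPM with the other 17 mice at 0.

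Of the 94 tRNA ends, 6 were higher and 1 lower at an unadjusted P below 0.05 (6.38% and 1.06%, beside 8.67% and 1.48% over all members). The end with the smallest P among those higher was Gly-ACC 5′, with a median of 329 RPM in CTPR (range 14.2 to 895 RPM) and 85.7 RPM in PRCT (range 11.5 to 228 RPM). Its log2 fold difference was 1.73 (SE 0.67, edgeR, adjusted P = 0.295) and was 1.68 within tRNA ends and 1.11 under TMM scaling. The isoacceptor row for Gly-ACC held fewer reads than this end alone (CTPR median 21.5 RPM), so its assignment to an anticodon is uncertain as above. Gln-CTG 5′ had medians of 542 and 246 RPM (1.03, SE 0.44, edgeR, adjusted P = 0.389) and Ile-AAT CCA had medians of 87.5 and 49.4 RPM (0.96, SE 0.38, edgeR, adjusted P = 0.316). Within tRNA ends these estimates were 0.56 and 0.63, and under TMM scaling 0.54 and 0.33. The lower end, Arg-TCT CCA, was at 0 in all CTPR mice and in 7 of 9 PRCT mice. Its highest level, 65.2 RPM, was in PRCT mouse 59L1. There the CCA member rows summed to 3320 reads and the CCA class row held 2830, so this level is uncertain.

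The abundant tRNA ends were 5′ fragments of glycine, glutamate, valine and lysine tRNAs. Gly-CCC 5′ had medians of 66826 and 59946 RPM (log2 fold difference 0.39, edgeR, adjusted P = 0.723), Glu-CTC 5′ had 21091 and 18750 RPM (-0.07, adjusted P = 0.940) and Gly-GCC 5′ had 8261 and 6061 RPM (0.69, adjusted P = 0.548). Val-AAC 5′ had 7134 and 3700 RPM (0.59, adjusted P = 0.623) and Lys-CTT 5′ had 6474 and 5325 RPM (0.39, adjusted P = 0.661), and the ranges of the groups overlapped for each. Within tRNA ends the estimates were 0.091 for Gly-CCC, -0.44 for Glu-CTC, 0.34 for Gly-GCC, 0.23 for Val-AAC and -0.015 for Lys-CTT. Under TMM scaling Gly-CCC 5′ (-0.035) and Lys-CTT 5′ (-0.18) turned negative, so no direction is given for either.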

How the data were processed

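The authors aligned the sperm small RNA reads with the SPORTS pipeline, using mouse genome build mm10. The deposited values are raw read counts per class and per member, and genome-matched counts were used here. Members and lists were chosen with earlier results of these data known. Class reads were taken as percentages of the reads matching the genome, and compared by exact permutation tests over mice (two-sided, smallest possible P 4.1e-05). Members were tested with edgeR 4.0.16 (R 4.3.3; glmQLFit with robust estimation, glmQLFTest), with reads matching the genome as library size, a mean of at least 10 reads, and Benjamini-Hochberg adjustment over all members. Isoacceptors were tested in the same way without robust estimation, on their own rows. Standard errors were taken as the size of the fold difference over the root of F.

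The test was tried on simulated counts, where it recovered few of the changed members and gave too many small P-values for members seen in few mice. So unadjusted counts are descriptions, and a count of 0 calls shows no lack of change. On those counts the legacy=FALSE form gave more false calls. It had been intended as the main form, and was exchanged with the form used here after both had been run on the data. DESeq2 1.42.0 and limma 3.58.1 (log2 RPM with a pseudocount of 1) were alternatives. tRNA end shares used the sum over isoacceptors, because the tRNA class row of 31A3 was smaller than its 5′ end row. Members named were the 5 most abundant of each kind and the 3 with the smallest P in each direction.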

Additional observations from a re-analysis of the deposited data

Results flagged for a closer look

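The values below stood apart from the other mice of their group by Dixon's criterion, and the cause was not tested. For normally distributed values, chance meets this criterion in about 1 group in 20. That rate need not hold for levels in RPM. Where all other mice of a group were at 0, as for several piRNAs below, any read meets it, so such a flag shows only that reads were sparse. Among classes, snoRNA was 34.3% in 09H5, and the log2 ratio of tRNA to snoRNA was -2.86 in the same mouse. The rRNA share was 4.52% in PRCT mouse 08G3 and the lincRNA share 8.11% in CTPR mouse 02A8, whose log2 depth was 22.13. The CCA share of tRNA reads was 0.695% in PRCT mouse 23F4, and the share of His-GTG was 3.43% in CTPR mouse 49K3. The CCA share of 23F4 used member rows that summed to 2399 reads, while its CCA class row held 1033, so this flag may rest on that mismatch.

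CTPR mouse 57P1 was high for mir-143 (7579 RPM), mir-21a (2956 RPM), piR-mmu-2819708 (5750 RPM), piR-mmu-9033385 (2345 RPM), Gly-GCC CCA (7.33 RPM) and piR-mmu-15350857 (0.440 RPM). PRCT mouse 59L1 was high for Ala-CGC (423 RPM), Ala-CGC 3′ (56.0 RPM), Ala-TGC (1885 RPM), Asp-GTC (9430 RPM), Glu-CTC (58211 RPM), Glu-CTC 5′ (53292 RPM) and Arg-TCT CCA (65.2 RPM). PRCT mouse 51O1 was high for piR-mmu-14081516 (8606 RPM) and piR-mmu-21164962 (604 RPM). Single high values were 0.930 RPM for piR-mmu-21164962 in CTPR mouse 49K3, 0.348 RPM for piR-mmu-16640197 and 28.9 RPM for Gly-GCC CCA in PRCT mouse 14A4, 0.152 RPM for piR-mmu-3662967 in PRCT mouse 23F4, 0.146 RPM for piR-mmu-44603810 in CTPR mouse 35F1 and 1.86 RPM for Ser-GGA in PRCT mouse 40H1.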

How the results depend on the processing

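No paired analysis was possible because the 18 mice came from 18 litters and no litter held both groups. The 9 mice a group and the depth limit the size of difference detectable, and the cause of each change below was not tested unless stated.

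Class composition gave an exact permutation P of 0.107 outside snoRNA, 0.132 on log2 percent, 0.0557 without litter 47I, 0.0709 without 31A3, and 0.00411 to 0.0830 with each mouse left out. With each mouse left out, the difference in percentage points ran from 4.59 to 7.98 for piRNA and from -12.8 to -7.96 for snoRNA, with 0 to 2 classes past the threshold, and the log2 ratio of tRNA to snoRNA from 1.00 to 1.59, with 0 to 1 ratios past it. Small class differences changed sign: mitochondrial tRNA (0.0186 without litter 47I, -0.586 to 0.283 with each mouse left out), mitochondrial rRNA (-0.0333 outside snoRNA, -0.0732 to 0.289), unannotated (-0.420 outside snoRNA), miRNA (-0.0373 in the largest database) and rRNA (0.011 on the log2 scale, 0.000405 in the largest database, -0.208 to 0.223). So did the shares of Gly-CCC (-0.0133 without 31A3, -0.513 to 0.781), Lys-CTT (-0.300 to 0.341), His-GTG (-0.00966 to 0.331) and Val-CAC (-0.116 to 0.685).

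Among all members, the number called was 66 with DESeq2, 1 with limma and 250 with no filter beyond 1 read, which tested 409699 members. The percentages of members tested that were higher and lower in CTPR at an unadjusted P below 0.05, 8.67 and 1.48 as reported, were 5.21 and 1.98 with TMM, 5.46 and 1.86 with DESeq2 size factors, 4.67 and 2.30 scaled to the own kind, 13.3 and 1.20 with a mean of at least 100 reads, 9.09 and 0.141 with reads in at least 14 mice, 10.4 and 0.656 with DESeq2, 10.6 and 0.341 with limma, 14.6 and 1.78 with legacy=FALSE, and 6.32 and 2.77 with no filter. Among isoacceptors, 1 was higher and 1 lower with TMM and with DESeq2 size factors, 5 were higher within isoacceptor reads and 3 when summed to the amino acid, and with each mouse left out 5 to 25 were higher and 0 to 1 called. The scalings to reads of the own kind, the filter on 14 mice, legacy=FALSE, the sum of end rows and the sum to amino acids were chosen after seeing the data.

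Log2 fold differences that changed sign were, with TMM, mir-10a -0.30, Gly-CCC 5′ -0.035 and Lys-CTT 5′ -0.18, and the isoacceptors Gly-CCC -0.10, Gly-GCC -0.086, Lys-CTT -0.24 and Val-CAC -0.074. With DESeq2 size factors they were mir-10a -0.23 and Lys-CTT 5′ -0.13, and Gly-CCC -0.15, Gly-GCC -0.12, Lys-CTT -0.25 and Val-CAC -0.12. Within the own kind they were mir-10a -0.30, mir-143 -0.070, Lys-CTT 5′ -0.015 and Lys-CTT -0.021. With the labels' groups piR-mmu-15350857 gave 0.092. DESeq2, which replaces outlying counts, gave 1.00 for Ala-CGC 3′ and 0.88 for Ala-TGC, and limma gave 0.17 for Ala-CGC 3′, 0.38 for Ala-CGC, 0.50 for Ala-TGC and 0.15 for Asp-GTC. The sum of end rows gave 0.50 for Ala-TGC and 0.26 for Asp-GTC. With each mouse left out the ranges were -0.32 to 0.19 for Glu-CTC 5′, -0.30 to 0.20 for Glu-CTC, -0.54 to 0.047 for let-7c-2, -1.02 to 1.09 for Ala-CGC 3′, -0.29 to 0.69 for Ala-CGC, -0.59 to 0.97 for Ala-TGC and -0.31 to 0.39 for Asp-GTC.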
